A study of Homo sapiens with 54 samples.

Results

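The comparison described here set 3 RNA sequencing libraries of BT549 cells that received siRNA against JUN (siJUN) and dexamethasone (DEX) beside 3 that received a control siRNA (siCtl) and DEX. These 6 libraries, chosen by their labels, are part of a series of 54. BT549 is an established human breast cancer line, triple-negative and mesenchymal in form, and every group is of this single line with a genotype labelled WT. DEX, a synthetic glucocorticoid, was used at 500 nM dissolved in water per the shared protocol, which names 2 h or 4 h without saying which applies here. Neither the siRNA reagent nor the time of the JUN knockdown is stated in the labels. The question put to the data is which genes differ between siJUN and siCtl cells that were treated with DEX. Whether a change came from less JUN or from the siRNA itself was not tested. Of the same experiment, 3 siJUN and 3 siCtl libraries with vehicle and 3 libraries with siRNA against FRA1 (siFRA1) and DEX served to show where the comparison differs. The 3 siFRA1 libraries with vehicle entered the shared fit and are drawn in the figures by library. The other experiments of the series served to list DEX-responsive genes. Their groups were siCtl cells with vehicle or DEX for 2 h, and cells with DMSO at 4 h, alone or with DEX for 4 h.

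JUN is the founding member of a family of basic leucine zipper proteins that pair with each other or with FOS family proteins, among them FRA1 (gene FOSL1), to form the transcription factor AP-1. AP-1 binds short palindromic DNA elements and is known for driving genes of invasion, matrix remodelling and wound healing in mesenchymal breast cancer cells. The glucocorticoid receptor (gene NR3C1) is a hormone-activated transcription factor whose binding sites often lie near AP-1 elements, and it can also act on AP-1 target genes without binding DNA itself.

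The 6 libraries held between 10408779 and 16352524 counts over 26517 gene symbols. Of these, 13658 genes passed the filter on low counts and were tested. No library repeated another of its group, since chi-square per degree of freedom between replicates lay between 4.08 and 15.6 over 18 pairs. The labels do not say whether replicates came from separate cultures, so the p-values measure a spread that may be technical. The mesenchymal markers VIM and FN1 were at 1668 ± 61.3 and 1022 ± 143 CPM (counts scaled to the library size, SD, n = 3) in siCtl DEX, while the oestrogen receptor gene ESR1 had 2 counts, PGR 0 and EPCAM 7 over the 6 libraries. The replicate number, which the labels leave unexplained, was kept in the fit as a block. Because the count of called genes depended on the block, counts without it stand beside most gene groups of siJUN DEX against siCtl DEX. Counts of gene groups with vehicle or with siFRA1 are given with the block only. In siCtl DEX replicate 2 the interferon response genes summed lower than in the other 5, with the values given beside that group. In bulk RNA, fewer cells that express a gene and less RNA of that gene per cell cannot be told apart.

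JUN transcripts were the check on the labels. JUN (chromosome 1, 58780788 to 58784327, minus strand, GRCh38, protein-coding) was read at 192, 197 and 260.8 CPM in siCtl DEX replicates 1, 2 and 3, and at 49.3, 55.6 and 88.7 CPM in siJUN DEX. Every knockdown library was below every control library. The fall was 3.39-fold (log2 fold change -1.76, SE 0.147, adjusted p = 5.65e-06, edgeR's quasi-likelihood test), so JUN transcripts were reduced and not absent. With vehicle the siCtl libraries held 280.4 ± 12 CPM of JUN and the siJUN libraries 99.1 ± 13.1 CPM (SD, n = 3).

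The partners of JUN did not fall with it. FOSL1, which encodes FRA1, was at 65.9, 64.3 and 50.2 CPM in siCtl DEX and at 74.3, 74.0 and 47.5 CPM in siJUN DEX. The log2 difference of 0.12 (SE 0.134) did not pass the test (adjusted p = 0.645). NR3C1, the gene of the glucocorticoid receptor, was at 237 ± 10.3 and 234 ± 22.7 CPM (log2 -0.02, SE 0.0556, adjusted p = 0.836). FOS, the partner that serum and stress switch on, was at 9.59 ± 1.96 and 14.8 ± 6.16 CPM (adjusted p = 0.0607).

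Of 13 AP-1 subunit genes tested, 5 rose (38.5%) and JUN alone fell (7.69%), against 8.17% higher and 8.98% lower over all genes. Their median log2 fold change was 0.22. JUNB, which competes with JUN for partners, was at 91.8, 76.7 and 112 CPM in siCtl DEX and 117, 95.4 and 143 CPM in siJUN DEX. Its groups overlap, but within each replicate number the knockdown library was the higher (log2 0.34, SE 0.0647, adjusted p = 1.27e-04). JUND rose by 0.27 on the log2 scale (adjusted p = 0.0143), FOSL2, which encodes FRA2, by 0.22 (adjusted p = 0.00855), and JDP2, which encodes a repressor that dimerises with JUN, by 0.71 (adjusted p = 2.63e-04). BATF2, an interferon-inducible member that was at 0.542 ± 0.171 CPM in siCtl DEX and 2.97 ± 2.19 CPM in siJUN DEX, was the fifth (log2 2.38, adjusted p = 1.44e-05). These rises depended on the block: without it BATF2 alone rose (adjusted p = 0.0246), and JUNB, JUND, FOSL2 and JDP2 had adjusted p of 0.41, 0.536, 0.419 and 0.25. Leaving out siCtl DEX replicate 1 lowered the number that rose from 5 to 3.

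**Figure D1:**
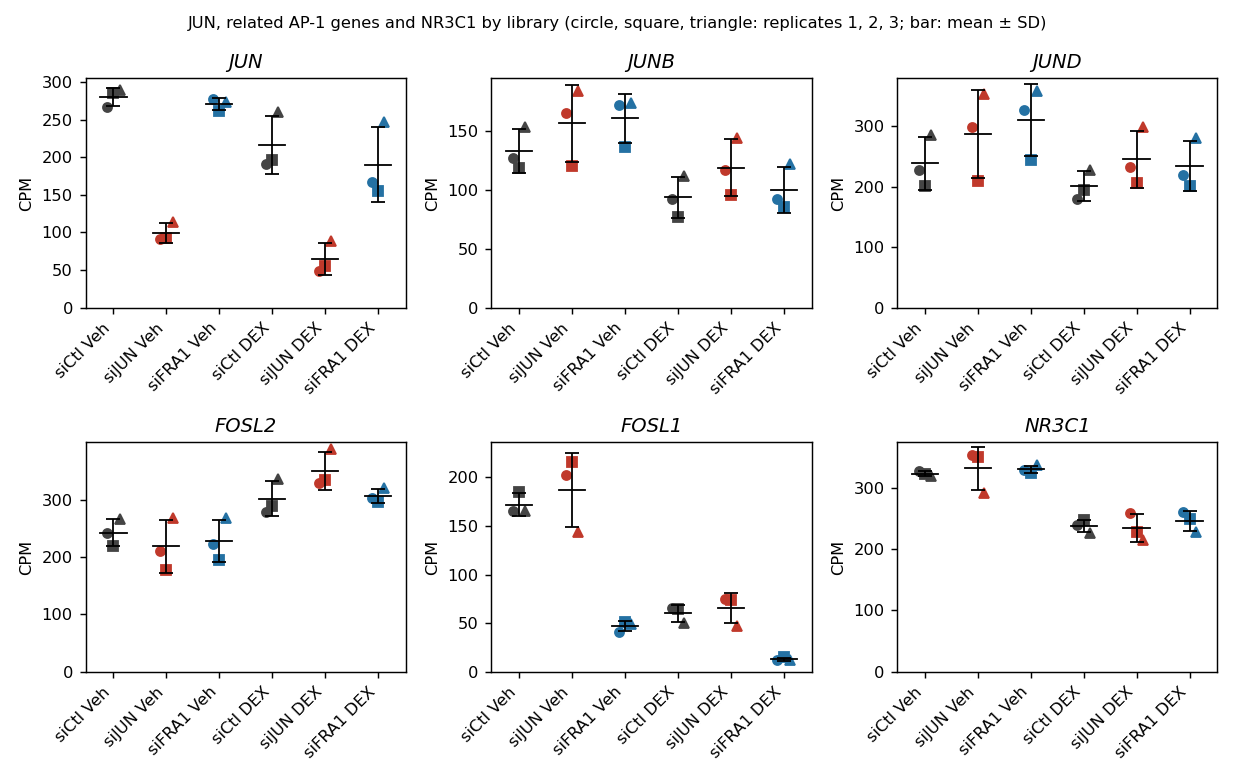
CPM of JUN, 4 related AP-1 genes and NR3C1 (vertical axes from 0) in the 6 groups of the experiment, with circles, squares and triangles for replicates 1, 2 and 3 and bars for mean ± SD. JUN lies lower in both siJUN groups, at 64.6 and 99.1 CPM on average, while JUNB, JUND and FOSL2 overlap between siCtl and siJUN with DEX.

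Across all genes tested, 1116 were called higher in siJUN DEX (8.17%) and 1227 lower (8.98%), 17.2% in all, at an adjusted p under 0.05. Most changes were small. The median size of the 2343 called changes was 0.37 on the log2 scale, and 72.1% of them were under 1.5-fold. Past 2-fold the balance was uneven, with 189 genes higher (1.38%) and 63 lower (0.461%). Without the block 446 genes were higher (3.27%) and 452 lower (3.31%), and 897 of these 898 were also called with it. These shares, with and without the block, are the background for the gene groups below. The lowest library of one group lay above the highest of the other for 3080 genes (22.6%), and 630 of the called genes had overlapping replicates. How many of those 630 kept their call without the block was not counted.

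Interferon response genes rose together. These are the genes that virus-sensing pathways and interferons switch on through STAT and IRF transcription factors, and their products block viral replication and present antigens. All 36 members tested of a list of 38 were called higher, against 8.17% of all genes tested, with a median log2 fold change of 1.12 against -0.000389 over all genes. The replicates did not overlap for 34 of the 36, against 22.6% of all genes tested, the exceptions being IFITM1 and IFITM3. The other 2 of the list, IFITM2 and the interferon gene IFNB1, had 4 counts each over the 6 libraries and were not tested.

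Many interferon-responsive promoters carry a repeated GAAA element, and 4 promoters are printed because they show this element in genes that rose. The 250 bases before the RefSeq transcription start (GRCh38.p14) are given 5′ to 3′ on the coding strand, with matches to GAAANNGAAA on either strand in capitals. The windows are chr2:6877527-6877776, chr3:187368135-187368384, chr10:89392373-89392622 and chr1:1013247-1013496 in the order printed, all on the plus strand.
RSAD2: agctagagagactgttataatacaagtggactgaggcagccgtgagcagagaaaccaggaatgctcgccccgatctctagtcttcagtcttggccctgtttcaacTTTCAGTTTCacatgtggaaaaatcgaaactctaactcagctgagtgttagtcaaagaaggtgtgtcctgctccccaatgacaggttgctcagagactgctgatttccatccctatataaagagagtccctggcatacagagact
RTP4: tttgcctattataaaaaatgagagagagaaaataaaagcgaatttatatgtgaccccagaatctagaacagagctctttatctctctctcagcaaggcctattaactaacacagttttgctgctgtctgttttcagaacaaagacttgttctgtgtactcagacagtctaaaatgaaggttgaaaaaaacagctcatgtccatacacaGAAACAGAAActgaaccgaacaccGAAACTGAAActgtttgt
IFIT1: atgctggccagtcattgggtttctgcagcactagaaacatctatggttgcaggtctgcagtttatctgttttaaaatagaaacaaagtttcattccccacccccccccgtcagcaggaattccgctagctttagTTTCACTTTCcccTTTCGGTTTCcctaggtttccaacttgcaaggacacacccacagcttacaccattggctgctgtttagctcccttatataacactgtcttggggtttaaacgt
ISG15: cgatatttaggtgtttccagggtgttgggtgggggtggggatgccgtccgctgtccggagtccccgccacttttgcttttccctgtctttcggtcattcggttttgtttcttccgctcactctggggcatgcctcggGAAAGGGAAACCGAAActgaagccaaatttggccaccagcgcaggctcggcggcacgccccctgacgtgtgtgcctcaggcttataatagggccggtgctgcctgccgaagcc
In ISG15 a pair of matches overlap. Over windows of 300 bases (250 before to 50 after the start), the letters occurred in 19 of the 28 interferon response genes with a promoter in the table (67.9%), in 13.9% of the genes called higher, in 3.74% of those called lower and in 4.04% of all genes tested that had one. Of all 35116 windows in the table, 3.57% held a match. The AP-1 element TGANTCA, which reads alike on both strands, occurred in 10.8% of the genes called lower and 8.21% of those called higher. It occurred in 6.88% of all genes tested with a promoter, 9.37% of all genes with a promoter and 7.71% of all windows. The larger falls did not hold it more often. It occurred in 3 of 38 genes lower by at least 2-fold (7.89%) and in 0 of the 9 largest falls with a promoter. A match describes the letters of a window and does not show that a factor binds there.

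RSAD2, whose product viperin blocks the replication of many viruses, was at 75.4, 30.7 and 95.0 CPM in siCtl DEX and at 363, 201 and 244 CPM in siJUN DEX. The lowest knockdown library was above the highest control library, and the rise was 4.16-fold (log2 2.05, SE 0.225, adjusted p = 6.89e-05). IFIT2, one of the IFIT proteins that bind viral RNA, was at 52.4, 24.2 and 55.6 CPM against 303, 145 and 158 CPM. It rose 4.54-fold (log2 2.18, SE 0.204, adjusted p = 1.88e-05), as did OASL by 3.5-fold and IFIT3 by 3.43-fold, again without overlap between the groups. RSAD2 and CMPK2, and IFIT2 and LIPA, overlap on opposite strands, and since no source used here gives the strand setting of the counts their reads may be shared.

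The cytosolic RNA sensors moved with the effector genes. IFIH1, which encodes MDA5, went from 94.7 ± 29 to 253.6 ± 55.9 CPM (2.7-fold, adjusted p = 6.51e-05), and DDX58, which encodes RIG-I, from 184 ± 62.7 to 534 ± 141 CPM (2.95-fold, adjusted p = 4.04e-05). TLR3, the endosomal sensor of double-stranded RNA, was at 4.22, 2.38 and 4.69 CPM in siCtl DEX and at 22.0, 11.5 and 8.31 CPM in siJUN DEX (3.66-fold, adjusted p = 1.84e-04). Among the transcription factors of the pathway IRF1 went from 32.8 to 74.4 CPM on average (2.25-fold, adjusted p = 6.43e-08), and IRF9 rose 1.27-fold (adjusted p = 4.78e-04).

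Within the 36 genes the smallest rises were those of IFITM3 at 0.31 and IRF9 at 0.35 on the log2 scale. The summed level of the 36 genes was 7195, 3899 and 8520 CPM in siCtl DEX and 16743, 11369 and 13325 CPM in siJUN DEX, so that siCtl DEX replicate 2 was the lowest of the 6 libraries. Replicate 2 was also the lowest of its group with vehicle, at 4681 CPM against 8572 and 8503 CPM. The same held in the siJUN and siFRA1 groups, where replicate 2 was at 13074 and 8405 CPM with vehicle and 11369 and 9155 CPM with DEX. Thus replicate 2 was the lowest library in each of the 6 groups of the experiment, and the reason was not tested. Leaving out any 1 of the 6 libraries left 35 or 36 of the 36 called higher, with medians between 0.954 and 1.28. Without the block 17 of the 36 were called, among them RSAD2, IFIT2 and IFIH1, while MX1, ISG15 and PARP9 were not (adjusted p = 0.111, 0.119 and 0.14).

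**Figure D2:**
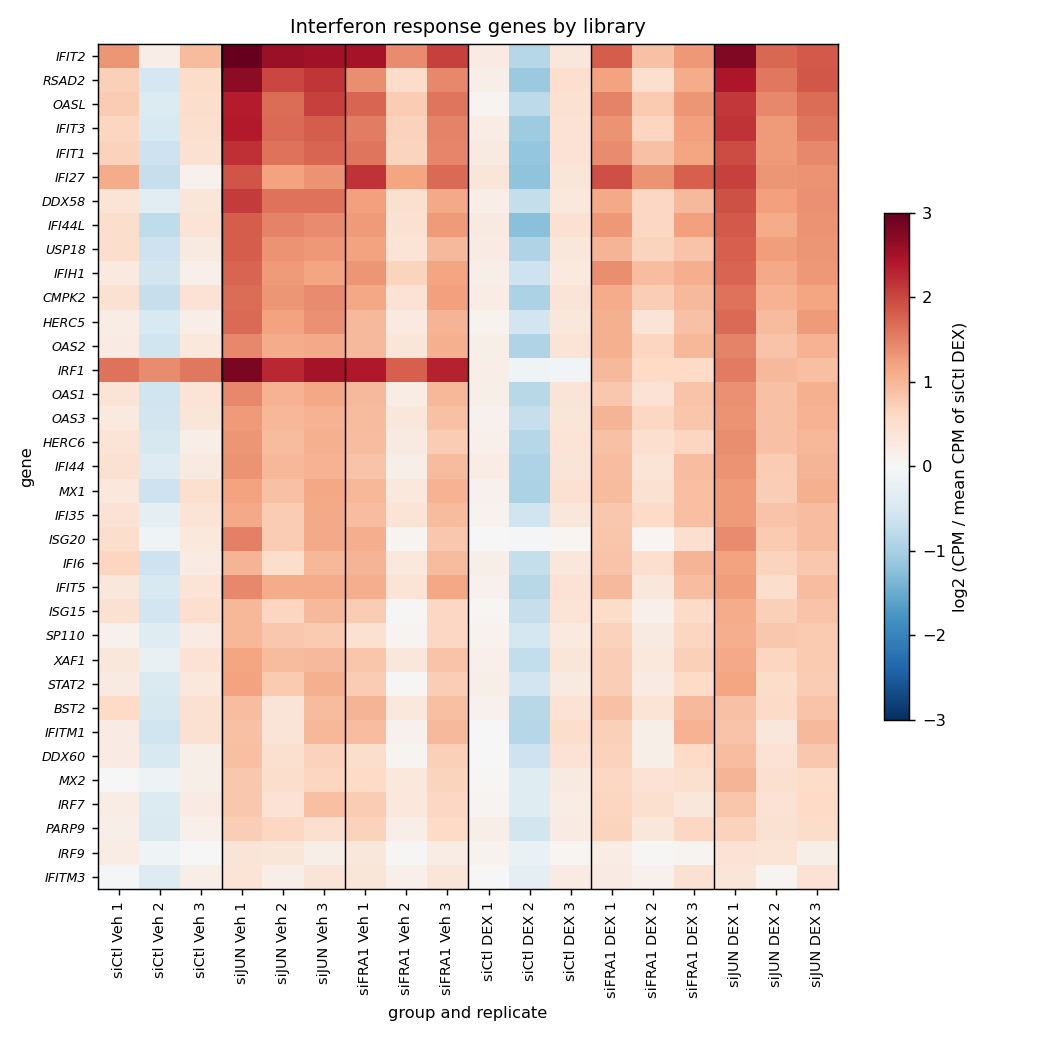
Log2 ratio of CPM to the mean of siCtl DEX (colour, white at 0) for 35 of the 36 interferon response genes (rows) in the 18 libraries of the experiment (columns, grouped by siRNA and treatment). The 3 siJUN DEX libraries are red in nearly all rows, siCtl DEX replicate 2 is blue, and the siFRA1 columns are red as well.

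The 15 genes with the largest rises, chosen among called genes of at least 5 CPM whose replicates did not overlap, included several of the same kind, though the list of interferon response genes held only IFIT2 and RSAD2 of them. The rise of GBP4, an interferon-inducible guanylate-binding protein (chromosome 1, 89181148 to 89198932), was the largest. GBP4 was at 11.0, 6.7 and 10.2 CPM in siCtl DEX and at 102, 54.2 and 42.6 CPM in siJUN DEX (6.93-fold, log2 2.79, SE 0.234, adjusted p = 4.57e-06). ETV7, an interferon-inducible ETS family repressor, rose from 1.18 ± 0.26 to 6.57 ± 1.83 CPM (5.56-fold, adjusted p = 1.13e-09). RTP4, TRIM22, APOL1 and TRANK1 rose between 3.83-fold and 5-fold, with RTP4 at 1.86, 0.705 and 1.56 CPM in siCtl DEX and 10.8, 5.19 and 4.75 CPM in siJUN DEX.

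Other genes among the 15 are known for other roles. SULF1, an extracellular sulfatase that edits heparan sulfate and so growth factor signalling, was at 5.5, 2.2 and 5.67 CPM in siCtl DEX and 23, 16 and 20 CPM in siJUN DEX. It rose 4.45-fold (log2 2.15, SE 0.218, adjusted p = 2.12e-07). TEK, the angiopoietin receptor, rose 4.19-fold (adjusted p = 7.83e-08) from 1.67, 2.2 and 0.782 CPM to 7.32, 7.82 and 4.38 CPM. It is a marker of endothelial cells, whose other markers PECAM1, VWF and CDH5 had 2, 2 and 0 counts over the 6 libraries. NFE2L3, a CNC family transcription factor, IL20RB, a subunit of receptors for the IL-20 cytokines, PLCG2, a signalling phospholipase, and GRIP2, a scaffold protein gene that overlaps SLC6A6 on the other strand, rose between 3.61-fold and 4.44-fold. All 15 were also called higher without the block.

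**Figure D3:**
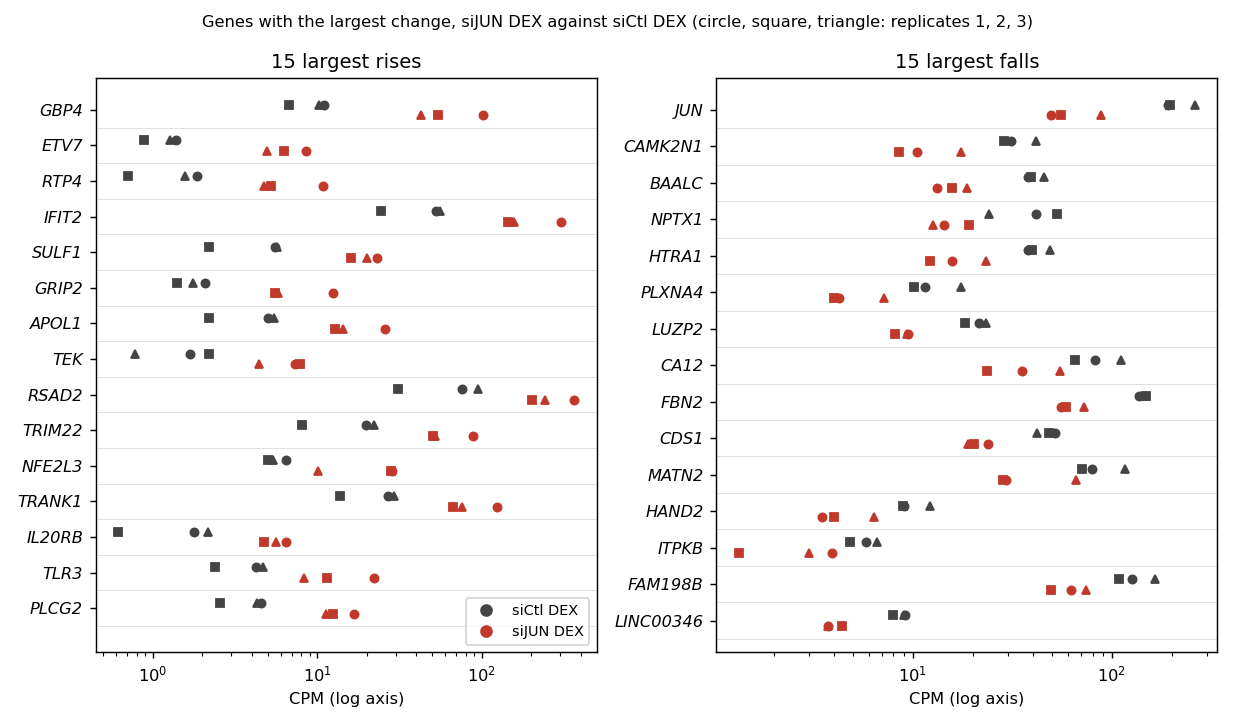
CPM on a log axis in the 3 siCtl DEX (grey) and 3 siJUN DEX (red) libraries for the 15 genes with the largest rises (left) and the 15 with the largest falls (right), with circles, squares and triangles for replicates 1, 2 and 3. The groups are apart in every row by the rule of choice, from GBP4 at 6.93-fold and JUN at 3.39-fold downwards.

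The 15 largest falls were of smaller size than the rises and of more varied genes. After JUN itself came CAMK2N1, which encodes an inhibitor of the kinase CaMKII. It was at 31.2, 28.6 and 41.6 CPM in siCtl DEX and at 10.5, 8.55 and 17.4 CPM in siJUN DEX, a 2.85-fold fall (log2 -1.51, SE 0.12, adjusted p = 2.93e-12). BAALC, a gene known from brain and acute leukaemia, was at 38.1, 39.5 and 45.8 CPM against 13.2, 15.7 and 18.6 CPM (2.6-fold lower, adjusted p = 5.33e-12). FBN2, which encodes the microfibril protein fibrillin-2, was at 138, 149 and 144 CPM in siCtl DEX and 55.9, 58.6 and 72.4 CPM in siJUN DEX (2.32-fold lower, log2 -1.21, SE 0.0675, adjusted p = 3.32e-16).

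Several of these genes act at the cell surface or outside the cell. HTRA1, a secreted serine protease, fell 2.54-fold (adjusted p = 8.42e-12), from 42.4 ± 5.89 to 17.1 ± 5.68 CPM. NPTX1, a neuronal pentraxin, also fell 2.54-fold, from 41.6, 53.1 and 24.2 CPM to 14.3, 19.1 and 12.6 CPM. MATN2, a matrix protein of the matrilin family, and PLXNA4, a semaphorin receptor, fell 2.23-fold and 2.52-fold, but not without the block (adjusted p = 0.152 and 0.0781). CA12, a membrane carbonic anhydrase, went from 81.9, 65.6 and 111 CPM to 35.4, 23.7 and 55.2 CPM, and without the block its adjusted p was 0.118. Among the other falls were CDS1, an enzyme of phospholipid synthesis, at 2.26-fold, ITPKB, an inositol phosphate kinase, at 2.18-fold, and HAND2, a developmental transcription factor that shares its locus with the antisense gene HAND2-AS1, at 2.2-fold. LUZP2, FAM198B and the long non-coding LINC00346 fell between 2.16-fold and 2.34-fold.

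Genes known from earlier work as linked to AP-1 leaned downwards. Of 18 tested, 8 fell and 1 rose, with a median log2 fold change of -0.20, against 8.98% lower and 8.17% higher over all genes. MMP1, the interstitial collagenase and a classical AP-1 target, was at 23.0, 22.7 and 12.9 CPM in siCtl DEX and 12.6, 10.4 and 8.31 CPM in siJUN DEX (1.87-fold lower, adjusted p = 6.83e-07). EGFR, the epidermal growth factor receptor, went from 267.6, 289 and 252.9 CPM to 185, 201 and 168 CPM (1.46-fold lower, adjusted p = 5.19e-08), and GJA1, which encodes the gap junction protein connexin 43, from 199.9 to 141 CPM (1.42-fold lower). These 3 were also lower without the block, and no other member of the list was called then. VEGFA and CD44 fell with the block, by 0.43 and 0.20 on the log2 scale, and had adjusted p of 0.266 and 0.0726 without it. CCND1, the cyclin D1 gene, was the member that rose (log2 0.40, adjusted p = 1.23e-04, and 0.576 without the block). WTAPP1 overlaps MMP1 on the other strand.

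Of 19 metalloproteinase, TIMP and ADAMTS genes tested, which act in matrix breakdown, 8 fell (42.1%) and 2 rose (10.5%), with a median of -0.16. Over all genes 8.98% fell and 8.17% rose. Without the block 3 fell and 2 rose, against 3.31% lower and 3.27% higher over all genes. MMP16, a membrane-type metalloproteinase, fell from 56.7, 63.6 and 49.2 CPM to 32.2, 39.3 and 31.7 CPM (1.64-fold, adjusted p = 2.88e-09), and MMP2, the gelatinase A gene, from 100.3 ± 9.45 to 73.4 ± 14.1 CPM (1.39-fold, adjusted p = 1.24e-04). TIMP3, a tissue inhibitor of metalloproteinases, rose 1.94-fold, from 14.3, 16.3 and 21.4 CPM to 28.0, 29.4 and 44.1 CPM (adjusted p = 1.1e-08), and ADAMTS4, an aggrecan-cleaving protease gene, rose 1.6-fold.

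Of 18 integrin and laminin genes, with a median of -0.21, 8 fell (44.4%) and 1 rose (5.56%), against 8.98% and 8.17% of all genes. Without the block 4 fell (22.2%), against 3.31% of all genes. LAMA3, the alpha chain of laminin-332, was at 89.1, 87.0 and 94.1 CPM in siCtl DEX and 56.4, 54.7 and 63.4 CPM in siJUN DEX (1.55-fold lower, adjusted p = 1.5e-09). ITGB1, the common integrin beta-1 chain, fell 1.25-fold (adjusted p = 2.43e-07) and ITGA3, a laminin-binding chain, 1.26-fold (adjusted p = 5.16e-07). ITGB5, a vitronectin receptor chain, was the member that rose (log2 0.26, adjusted p = 8.7e-04, and 0.0832 without the block). The 8 were 5 without siCtl DEX replicate 1 or siJUN DEX replicate 2 or 3.

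Collagen and other matrix genes went both ways, with a median of -0.03. Of 29, 6 were higher (20.7%) and 9 lower (31%), against 8.17% and 8.98% of all genes. TNC, which encodes tenascin C, fell 2.05-fold, from 111, 93.3 and 124 CPM to 47.4, 38.7 and 78.2 CPM (adjusted p = 2.38e-08, and 0.0683 without the block). COL13A1, a transmembrane collagen, fell 2.11-fold from 7.05 ± 1.14 to 3.33 ± 0.0617 CPM (adjusted p = 5.34e-05). DEC1 overlaps TNC. THBS1, the abundant matrix protein thrombospondin 1, went the other way, from 1927, 2105 and 2042 CPM to 3493, 3606 and 3301 CPM (1.71-fold higher, adjusted p = 2.27e-04). Without the block COL13A1 was lower and THBS1 and COL8A1 higher, and no other member was called.

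Markers of the mesenchymal state went both ways. Of 19 mesenchymal genes, with a median of 0.05, 8 rose (42.1%) and 5 fell (26.3%), against 8.17% and 8.98% of all genes. Of the transcription factor genes of the list, ZEB2, SNAI2, PRRX1 and FOXC1 fell and SNAI1 rose. ZEB2 went from 242, 223 and 242 CPM to 149.6, 128 and 155 CPM (1.64-fold lower, adjusted p = 6.3e-12), SNAI2, which encodes SLUG, from 45.8 to 28.1 CPM (1.64-fold lower, adjusted p = 1.44e-06), and PRRX1 from 47.8 to 28.3 CPM (1.69-fold lower, adjusted p = 3.96e-07). SNAI1, which encodes SNAIL, was at 1.57, 1.94 and 1.37 CPM in siCtl DEX and 3.22, 2.99 and 2.92 CPM in siJUN DEX (1.86-fold higher, adjusted p = 0.0311). Its call was lost without the block (adjusted p = 0.11) and in 5 of the 6 fits that each left out 1 library. ZEB1 was at 143 ± 9.03 and 148 ± 17.8 CPM and did not pass the test (adjusted p = 0.679). The contractile genes TAGLN, MYL9 and ACTA2 rose by 0.85, 0.79 and 0.68 on the log2 scale, and none of the 3 was called without the block (adjusted p = 0.0734, 0.222 and 0.575). CNN1, another contractile gene at a low level, rose from 0.418 ± 0.215 to 1.37 ± 0.406 CPM (log2 1.76, adjusted p = 0.0105) and was called without the block too (adjusted p = 0.038). Without the block, 2 of the 19 rose and 2 fell, and without siCtl DEX replicate 2 the number that rose was 5. ZEB2-AS1 overlaps ZEB2, and ACTA2-AS1 and FAS overlap ACTA2.

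Epithelial genes, low in this line, rose in 6 of 16 members tested (37.5%) and fell in 1 (6.25%), with a median of 0.68. Over all genes 8.17% rose and 8.98% fell. The counts of epithelial genes were the same without the block. The median was 0.42 without siJUN DEX replicate 3. CDH1, which encodes E-cadherin, was at 4.02, 4.05 and 7.82 CPM in siCtl DEX and 16.4, 12.5 and 16.4 CPM in siJUN DEX, 2.88-fold higher (log2 1.53, SE 0.164, adjusted p = 3.44e-09). KRT7, a simple epithelial keratin, rose 2.72-fold, from 40.1, 35.1 and 57.5 CPM to 114, 129 and 109.9 CPM (adjusted p = 2.87e-05). MAL2, an apical sorting protein, rose 1.82-fold, while OCLN, the tight junction gene occludin, fell 1.43-fold (adjusted p = 0.00163). EPCAM, OVOL1, OVOL2 and ESRP1 had between 1 and 7 counts over the 6 libraries and were not tested.

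Cytokine genes that changed were all higher, 8 of 18 (44.4%, against 8.17% of all genes) with a median of 0.45. Without the block 5 of them were higher (27.8%, against 3.27% of all genes). CCL5, a T cell-attracting chemokine that is itself interferon-inducible, rose 3.56-fold, from 17.8, 8.46 and 13.7 CPM to 60.9, 41.0 and 38.8 CPM (adjusted p = 1.17e-08). CSF1, the macrophage colony-stimulating factor, rose from 66.7 ± 3.53 to 95.1 ± 7.62 CPM (1.42-fold, adjusted p = 2.92e-07), and LIF, an IL-6 family cytokine, from 22.8, 20.4 and 27.6 CPM to 45.3, 29.1 and 50.9 CPM (1.74-fold, adjusted p = 0.0196, and 0.122 without the block).

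Readout genes of YAP and TEAD, the Hippo pathway factors that often share enhancers with AP-1, rose in 13 of 22 members and fell in 1 (TGFB2), with a median of 0.21. These were 59.1% and 4.55% of the members, against 8.17% and 8.98% of all genes. DLC1, a GTPase-activating protein, rose 1.91-fold, from 11.7, 12.4 and 9.68 CPM to 19.6, 23.1 and 21.7 CPM (adjusted p = 1.94e-08). AMOTL2 and CRIM1 rose 1.49-fold and 1.47-fold with no overlap between the groups. The best known readouts, CTGF and CYR61, rose by 0.36 and 0.26 on the log2 scale (adjusted p = 0.0109 and 0.00212), but not without the block (adjusted p = 0.43 and 0.345), where 7 of the 22 rose. The call of TGFB2 was lost in 4 of the 6 fits that each left out 1 library (without siCtl DEX replicate 2 or 3, or siJUN DEX replicate 1 or 2).

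Most of the called immediate early and stress genes were not called without the block. Of 20 immediate early genes 9 rose (45%, against 8.17% of all genes) and none fell (median 0.26). Without the block 2 rose, MYC and IER3 (10%, against 3.27% of all genes). MYC, the growth-promoting transcription factor gene, was at 389, 385 and 387 CPM in siCtl DEX and 475, 419 and 483 CPM in siJUN DEX (1.18-fold, adjusted p = 5.65e-04). IER3, a stress-inducible early gene, rose 1.53-fold from 11.9, 10.5 and 9.68 CPM to 17.3, 15.1 and 16.5 CPM (adjusted p = 0.0041). KLF2, a Kruppel-like transcription factor gene, rose 2.1-fold from 1.57, 1.94 and 0.684 CPM to 3.57, 3.48 and 1.73 CPM, with overlapping groups (adjusted p = 0.0161, and 0.1 without the block). Of 21 genes of the ATF4 and unfolded protein responses 10 rose (47.6%, median 0.29), against 8.17% of all genes. Without the block only 1 rose, ATF5 (adjusted p = 0.00443), which is 4.76% against 3.27% of all genes. The 9 immediate early genes were 4 without siCtl DEX replicate 3 and 5 without siCtl DEX replicate 1 or siJUN DEX replicate 2.

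Genes of the TGF-beta and BMP pathways went both ways, with 9 higher and 8 lower of 24 (4 and 3 without the block). The 9 and 8 were 37.5% and 33.3%, against 8.17% and 8.98% of all genes. LTBP1, which stores latent TGF-beta in the matrix, fell from 112, 109 and 112 CPM to 60.3, 58.3 and 78.6 CPM (1.71-fold, adjusted p = 1.05e-10), and the receptor gene TGFBR1 fell 1.33-fold (adjusted p = 5.45e-06). The ligand gene TGFB1 fell by 0.40 on the log2 scale (adjusted p = 2.78e-05). The BMP target genes ID2, ID3 and ID4 rose by 0.40, 0.84 and 1.03, and ID4 went from 7.26, 9.34 and 8.31 CPM to 15.5, 16.1 and 19.4 CPM (adjusted p = 2.86e-07). Without the block ID2 and ID4 rose and ID3 was not called (adjusted p = 0.128).

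Of 40 cell cycle genes, with a median of -0.01, 6 rose (15%) and 2 fell (5%), against 8.17% and 8.98% of all genes. Without the block 1 rose, CCNE2 (2.5%, against 3.27% of all genes). The number that fell was 0 without siCtl DEX replicate 1 or siJUN DEX replicate 1, and 1 without siJUN DEX replicate 2 or 3. Of 16 apoptosis regulators 6 rose (37.5%), and 4 without the block (25%), against 8.17% and 3.27% of all genes. BIRC3, an inhibitor of apoptosis, went from 23.9, 24.1 and 22.3 CPM to 80.6, 58.3 and 45.7 CPM (2.59-fold, adjusted p = 1.28e-05). PMAIP1, which encodes the BH3-only protein NOXA, rose 2.19-fold, from 11.5, 10.2 and 11.5 CPM to 29.5, 23.7 and 19.7 CPM (adjusted p = 1.01e-08). Of 22 MAPK pathway genes 3 rose (13.6%) and 2 fell (9.09%), against 8.17% and 8.98% of all genes. Without the block 2 rose and 1 fell. Among the 22 genes SPRY4, a feedback inhibitor of growth factor signalling, rose 1.86-fold from 47.9 ± 6.31 to 89.8 ± 17.5 CPM (adjusted p = 1.21e-10). The number of MAPK genes that fell was 4 without siCtl DEX replicate 3 or siJUN DEX replicate 3, and 1 without siCtl DEX replicate 2 or siJUN DEX replicate 1 or 2.

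**Figure D4:**
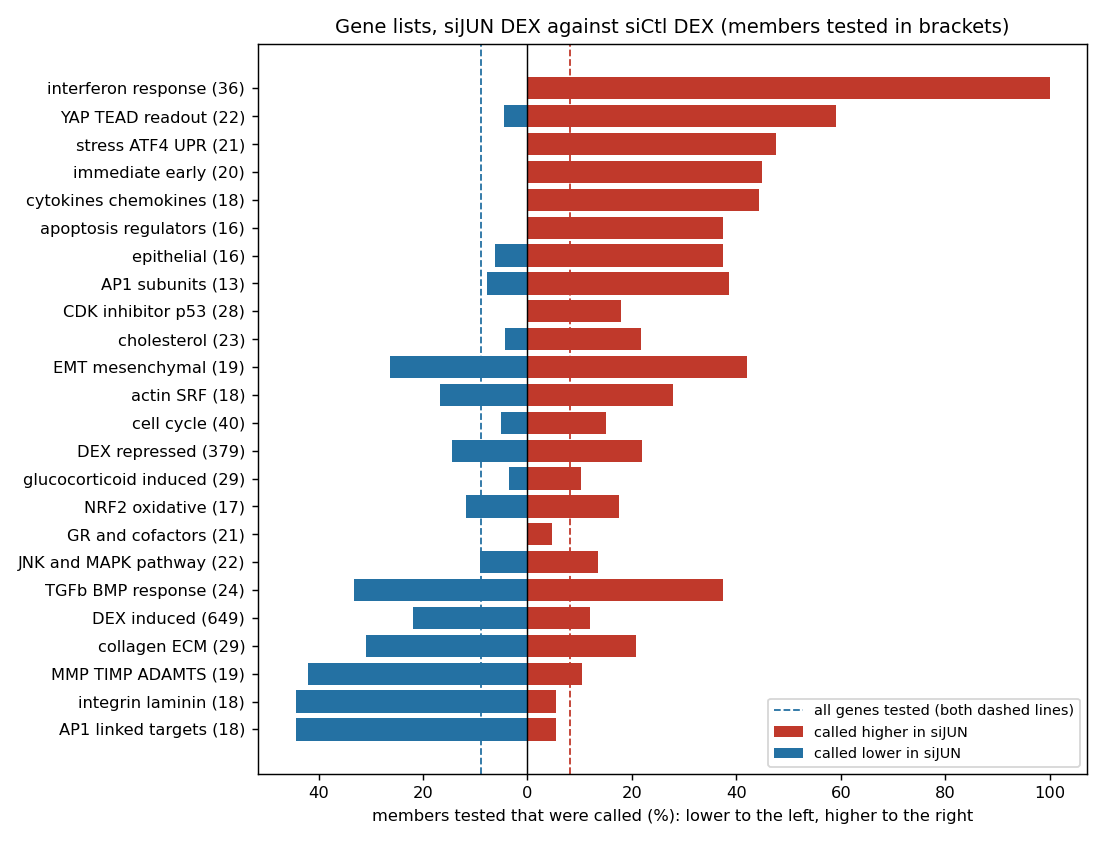
Share of the tested members of each gene list (in brackets) called higher (right, red) or lower (left, blue) in siJUN DEX against siCtl DEX, in percent, with the shares over all genes tested as dashed lines (8.17% and 8.98%). The interferon response list stands at the top with 36 of 36 higher, and AP-1 linked, integrin and laminin, and metalloproteinase genes lie at the bottom with 8 lower each.

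Of 29 known glucocorticoid-induced genes, 3 rose (10.3%) and 1 fell (3.45%), with a median of 0.02, against 8.17% higher and 8.98% lower over all genes. Without the block 2 rose and 0 fell. TSC22D3, the gene of the anti-inflammatory factor GILZ, was at 120.0, 104 and 123 CPM in siCtl DEX and at 175, 140.0 and 167 CPM in siJUN DEX, against 1.6 ± 0.496 CPM in siCtl with vehicle (log2 0.47, SE 0.066, adjusted p = 7.65e-07). FKBP5, a co-chaperone of the receptor, was at 30.6, 22.9 and 29.4 CPM against 40.7, 41.0 and 34.9 CPM (1.41-fold higher, adjusted p = 7.03e-04). PER1, a circadian clock gene, was higher by 0.21 and DUSP1, a MAPK phosphatase gene, lower by a log2 of -0.20, and neither was called without the block (adjusted p = 0.22 and 0.191). The call of DUSP1 was also lost in 5 of the 6 fits that each left out 1 library, all but that without siJUN DEX replicate 1. KLF9 and PDK4, a transcription factor and a metabolic kinase gene, were at 270.4 ± 51.7 and 216 ± 32.4 CPM in siCtl DEX and at 269.7 ± 69.3 and 196 ± 22.3 CPM in siJUN DEX (adjusted p = 0.888 and 0.214).

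A wider view used genes called in the same direction by DEX in both other experiments of the series, whose libraries are not part of this comparison. These set siCtl cells with DEX for 2 h against vehicle, and cells with DMSO and DEX for 4 h against DMSO at 4 h. Each experiment was fitted on its own by edgeR, without a replicate block. The DEX time of the present comparison is not stated, so it may differ from both. Of 666 induced genes 649 were tested here, and 77 were higher (11.9%) and 142 lower (21.9%) in siJUN DEX, with a median of -0.05. Of 380 repressed genes 379 were tested, and 83 were higher (21.9%) and 55 lower (14.5%), with a median of 0.04. Over all genes the shares were 8.17% higher and 8.98% lower. With vehicle, where no DEX was given, 83 of the induced genes were higher (12.8%) and 127 lower (19.6%). Of the repressed genes 73 were higher (19.3%) and 68 lower (17.9%) with vehicle, against 9.05% and 9.62% of all genes there. Among genes that DEX changed at least 2-fold there, 35 of 195 induced genes were higher and 37 lower, and 20 of 66 repressed genes higher and 4 lower. With vehicle these were 31 and 31 of the induced and 18 and 12 of the repressed genes. Without siJUN DEX replicate 2 the 35 were 22. When the block was left out, 42 of the 649 induced genes were higher (6.47%) and 64 lower (9.86%). Of the 379 repressed genes 39 were higher (10.3%) and 25 lower (6.6%) then, against 3.27% and 3.31% of all genes. Among the 2-fold responders, 19 and 18 of the induced and 13 and 2 of the repressed genes were higher and lower without the block. Without siCtl DEX replicate 2 the number of repressed genes that were lower was 36.

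Single DEX-induced genes differed by more. RSPO2, which encodes a secreted enhancer of Wnt signalling, was at 409, 363 and 367 CPM in siCtl DEX and at 214, 168 and 184 CPM in siJUN DEX, 2.02-fold lower (log2 -1.01, SE 0.065, adjusted p = 1.3e-13). It was also lower with vehicle, at 114 ± 3.88 against 43.8 ± 3.98 CPM. CDS1 was at 52.0, 48.4 and 42.3 CPM against 23.9, 20.2 and 19.0 CPM. Upwards, TXNIP, a brake on glucose uptake, went from 34.1, 32.2 and 49.0 CPM to 95.4, 56.9 and 92.8 CPM (2.1-fold, adjusted p = 8.81e-06) and FZD4, a Wnt receptor gene, from 20.8 ± 4.62 to 41.9 ± 9.02 CPM (2-fold, adjusted p = 5.12e-09). Of the DEX-repressed genes, GBP3 and IRF1 rose 3.17-fold and 2.25-fold.

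The same knockdown with vehicle, measured in 6 libraries that the DEX comparison does not share, gave 1236 genes higher (9.05%) and 1314 lower (9.62%), 18.7% in all. Of the genes called with DEX, 1573 were also called with vehicle, and every one of these in the same direction. They were 67.1% of the DEX calls and 61.7% of the vehicle calls. Same signs were found for 96.7% of the genes called with DEX, against 71.3% of all genes tested. Across the genes called with DEX the log2 fold changes had a Pearson r of 0.905 and a Spearman rho of 0.923, given as a description since genes are not independent. Of the 15 largest rises 14 were called with vehicle too, the exception being IL20RB (log2 0.71, adjusted p = 0.0603), and so were all 15 of the largest falls. All 36 interferon response genes were higher with vehicle, with a median of 1.05.

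The size of the knockdown effect was then tested for a difference between DEX and vehicle. At an adjusted p under 0.05, 3 genes were higher (0.022%) and 3 lower (0.022%), 0.0439% of those tested in all, with 835 at an unadjusted p under 0.05 (6.11%). Without the block there were 0 in each direction, and DESeq2's Wald test gave 5 and 7. NFIL3, which encodes a glucocorticoid-regulated bZIP repressor, was among the 3 that were higher. With vehicle NFIL3 went from 62.6, 65.6 and 77.5 CPM in siCtl to 55.1, 48.2 and 56.9 CPM in siJUN, and with DEX from 63.3, 61.0 and 64.9 CPM to 69.7, 66.5 and 77.4 CPM. The groups did not overlap under either treatment, and siJUN was the lower one with vehicle and the higher one with DEX. The log2 effect was -0.36 with vehicle and 0.17 with DEX, a difference of 0.53 (SE 0.0986, adjusted p = 0.0134). The call was lost in 6 of the 12 fits that each left out 1 library.

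**Figure D5:**
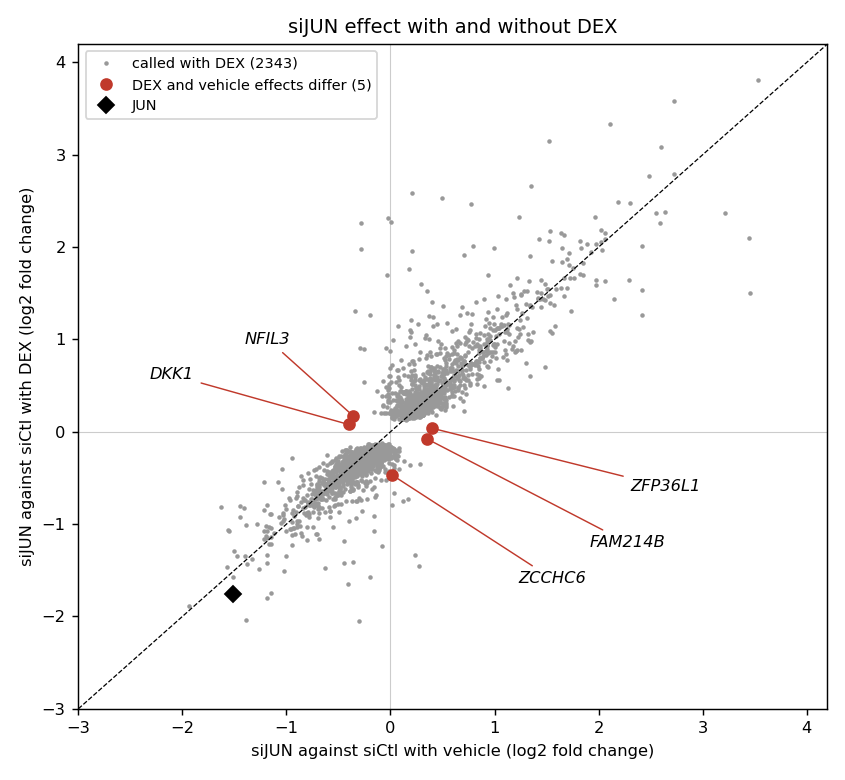
Log2 fold change of siJUN against siCtl with vehicle (horizontal) and with DEX (vertical) for the 2343 genes called with DEX (grey), with equality as a dashed line. The cloud follows that line, JUN lies at -1.51 and -1.76, and 5 of the 6 genes whose effects differ between DEX and vehicle (red) lie off it.

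Knockdown of FRA1 in DEX-treated cells was set beside that of JUN. Both are measured against the same 3 siCtl DEX libraries, so their effects are given side by side and the difference was tested directly between the knockdown libraries. That test called 1321 genes higher (9.67%) and 1385 lower (10.1%) in siJUN DEX than in siFRA1 DEX, and 473 and 578 without the block. The higher calls were 876 without siJUN DEX replicate 2 and 830 without siFRA1 DEX replicate 1. FOSL1, the target of the FRA1 siRNA, was at 11.5, 14.8 and 12.1 CPM in siFRA1 DEX, and was 2.34 higher on the log2 scale in siJUN DEX (adjusted p = 2.3e-07). JUN was at 168, 155 and 247 CPM in siFRA1 DEX. Of the 2343 genes called in siJUN DEX against siCtl DEX, 954 also differed from siFRA1 DEX. The same 3 siJUN DEX libraries chose these genes and enter this test, which favours a difference, so the count is a description only.

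Interferon response genes were higher in both knockdowns, and some of them differed between the knockdowns. In siFRA1 DEX against siCtl DEX 34 of the 36 were called higher, against 13.1% of all genes, with a median of 0.81 against 1.12 for siJUN. In the direct test 11 of the 36 were higher in siJUN DEX (30.6%) and none lower, with a median of 0.31. Over all genes 9.67% were higher and 10.1% lower in that test. Both counts of interferon response genes are with the block. RSAD2 was at 155, 92.9 and 145 CPM in siFRA1 DEX, below the 3 siJUN DEX libraries (log2 difference 1.04, SE 0.211, adjusted p = 0.00507), whereas IFI27, at 76.4 ± 15.1 CPM against 71.4 ± 21.6 CPM in siJUN DEX, did not differ beyond the error (log2 -0.11, SE 0.223, adjusted p = 0.805).

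Some of the strongest changes set the knockdowns apart. TEK was at 2.42, 2.22 and 1.29 CPM in siFRA1 DEX and 1.72 higher on the log2 scale in siJUN DEX (adjusted p = 1.03e-06), while SULF1 was at 24.6, 25.2 and 18.4 CPM with no difference called (log2 -0.23, SE 0.168, adjusted p = 0.373). FAM198B, which fell with siJUN, was at 155, 152 and 177 CPM in siFRA1 DEX (log2 difference -1.40, SE 0.0756, adjusted p = 1.31e-15). CA12 and LUZP2 were lower than in siFRA1 DEX by log2 differences of -0.84 and -0.87, whereas BAALC was lower in siFRA1 DEX, at 7.44, 8.39 and 15.1 CPM. Of the 15 largest rises 11 differed from siFRA1 DEX, and of the 15 largest falls 9. Both sets were likewise chosen by the siJUN DEX libraries that enter this test, so the counts are not separate support.

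Several of the largest differences between the knockdowns were in genes that were not called in siJUN DEX against siCtl DEX. ATP6V1G1, a proton pump subunit, and CDKN2C, which encodes the cell cycle inhibitor p18, were at 42.8 ± 6.68 and 56.8 ± 8.69 CPM in siFRA1 DEX and at 146 ± 2.02 and 176 ± 3.95 CPM in siJUN DEX (log2 differences 1.77 and 1.63). GDF15, a stress-induced cytokine, was at 124, 96.6 and 106 CPM against 34.0, 20.5 and 50.1 CPM (log2 -1.72, adjusted p = 2.09e-04). HBEGF, a ligand of EGFR, was at 12.4 ± 2.34 against 4.16 ± 0.523 CPM (log2 -1.57, adjusted p = 1.42e-09). ACTA2, which was called in siJUN DEX against siCtl DEX, was at 60.9, 50.1 and 119.7 CPM in siFRA1 DEX and at 198, 178 and 385 CPM in siJUN DEX, where replicate 3 was the highest library of each group. This difference was called with the block and not without it (adjusted p = 0.0753). Of 29 matrix genes, 15 were lower (51.7%) and 0 higher in siJUN DEX than in siFRA1 DEX. Of 24 TGF-beta and BMP genes 14 were lower (58.3%) and 1 higher (4.17%), against 10.1% lower and 9.67% higher over all genes. In siFRA1 DEX against siCtl DEX, 17 of the 29 were higher and 3 lower, and 16 of the 24 higher and 2 lower. Over all genes 13.1% were higher and 13.4% lower there. These counts of gene groups are with the block.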

How the data were processed

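Total RNA of BT549 cells was sequenced as NEBNext paired-end libraries, per the labels' protocols. The labels say polyA RNA for this experiment, while the shared protocol describes rRNA depletion. The authors deposited raw read counts per gene symbol, 1 table per library. Per the file headers these count primary STAR alignments. GRCh38 and the tools featureCounts, SAMtools, bcl2fastq and DESeq2 are named in the submitters' processing notes. Their versions, the annotation and the strand setting: not given in the sources used here. The library number in the file headers differs from the deposited one, and tables were assigned by deposited sample. 1 table of the whole series was not used. Some genes that the tests and counts include are not reported here by name.

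The test was edgeR 4.0.16 (R 4.3.3, limma 3.58.1) quasi-likelihood with robust dispersion on all 18 libraries of the experiment, with 6 group means, the replicate number as a block, TMM factors and filterByExpr. Adjusted p is Benjamini-Hochberg over 13658 genes, two-sided, called under 0.05. SE is that of the log2 fold change, CPM uses TMM-scaled library sizes, and folds come from the fit. The fit was run on simulated counts with a replicate effect built in, which cannot say whether the block holds in these data. Totals of 10408779 to 16352524 counts set the precision. Named genes were JUN, FOSL1 and NR3C1, the 15 largest called rises and falls of at least 5 CPM without overlap, the 6 largest in each direction of the other tests, and up to 5 members of each of 27 lists by size, with others named as examples of counts. The comparison and the lists were chosen with earlier results of these data known. Alternatives were no block, other scalings, no filter, DESeq2 1.42.0, only the groups compared, and leaving out each library of the groups compared, which for the siFRA1 DEX and vehicle libraries was chosen after seeing the data. Coordinates come from GENCODE v29 and promoters from RefSeq GRCh38.p14. Figures used matplotlib 3.10.9.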

Additional observations from a re-analysis of the deposited data

Results flagged for a closer look

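The siJUN effect differed between DEX and vehicle for 6 genes in the interaction test of edgeR's quasi-likelihood fit. Values are given for 5 of them. NFIL3, a glucocorticoid-regulated bZIP repressor gene, had a difference of 0.53 (adjusted p = 0.0134), from an effect of -0.36 with vehicle and 0.17 with DEX. DKK1, which encodes a secreted Wnt antagonist, had a difference of 0.48 (adjusted p = 0.0103), from -0.40 and 0.08. ZCCHC6, which encodes the terminal uridylyltransferase TUT7, had a difference of -0.48 (adjusted p = 0.0103), from 0.02 with vehicle and -0.47 with DEX. FAM214B had a difference of -0.43 (adjusted p = 0.0475), from 0.35 and -0.08. ZFP36L1, which encodes a protein that promotes mRNA decay, had a difference of -0.36 (adjusted p = 0.0475), from 0.40 and 0.04. None of the 6 was called without the replicate block. Of the 12 fits that each left out 1 library, ZCCHC6 lost its call in 2, DKK1 in 3, NFIL3 in 6, ZFP36L1 in 8 and FAM214B in 10.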

How the results depend on the processing

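Without the replicate block 446 genes were higher and 452 lower in siJUN DEX against siCtl DEX, 473 and 578 against siFRA1 DEX, 0 and 0 in the interaction, and 42, 64, 39 and 25 of the DEX-induced genes higher and lower and the DEX-repressed genes higher and lower. Deviations of same-numbered siCtl DEX and siJUN DEX libraries correlated at 0.0965, 0.218 and 0.311, and 5 of 6 libraries correlated best with their own number, a hint from the data and not the design. Of the named genes' results 118 were on the same side of the threshold without the block and 129 lost their call. With only the groups compared 39 lost it, with DESeq2 11, with library totals 6, and leaving out 1 siCtl DEX or siJUN DEX library between 24 and 37. The interaction gave 1 lower gene with library totals, 15 higher and 19 lower without the filter, 5 and 7 with DESeq2, and 1 and 1 with only its own groups. Leaving out 1 library gave 768 to 994 higher and 906 to 1112 lower genes in the main comparison, 1 to 10 and 0 to 11 in the interaction, and 830 to 1145 and 994 to 1251 against siFRA1 DEX. The interaction gave 1 and 0 without siCtl DEX replicate 1, 10 and 11 without siJUN vehicle replicate 3, 5 lower without siCtl DEX replicate 3, 0 lower without siJUN vehicle replicate 2, and 1 lower without siJUN DEX replicate 3 or replicate 1 of either vehicle group. Limited to responders of at least 2-fold, the induced counts were 35 and 37 and the repressed 20 and 4, from fewer genes. NR3C1, not called, ranged from -0.0804 to 0.00818 when 1 library was left out, changing sign to 0.000277 without siCtl DEX replicate 2 and to 0.00818 without siJUN DEX replicate 2. Apart from the smaller gene sets, the cause was not tested. Leaving out libraries for the gene lists, and leaving out siFRA1 DEX or vehicle libraries, was chosen after seeing the data.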

Other observations

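Further gene groups are given for siJUN DEX against siCtl DEX, where 8.17% of all genes tested were higher and 8.98% lower. Of 28 p53 and cell cycle inhibitor genes 5 rose (17.9%) and none fell (median 0.08), and 3 rose without the block and without siCtl DEX replicate 1 or 2 or siJUN DEX replicate 2. TNFRSF10B, which encodes the death receptor DR5, was at 93.0, 93.3 and 94.8 CPM in siCtl DEX and 129, 118 and 123 CPM in siJUN DEX (1.31-fold, adjusted p = 2.07e-06, edgeR). Of 17 NRF2 and oxidative stress genes 3 rose (17.6%) and 2 fell (11.8%), with a median of -0.07. NQO1, a quinone reductase and standard NRF2 readout, was at 567, 570.4 and 662 CPM against 824, 703 and 852 CPM (1.32-fold higher, adjusted p = 2.76e-08). Without the block 2 rose and 0 fell, and the number that fell was 0 without siCtl DEX replicate 2 and 1 without siJUN DEX replicate 2.

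Of 23 cholesterol synthesis genes 5 rose (21.7%) and 1 fell (4.35%), with a median of 0.04. IDI1, an isomerase of the pathway, was at 135, 122 and 119 CPM against 171, 139 and 151 CPM (1.22-fold higher, adjusted p = 6.78e-05, and 0.0593 without the block). Without the block 1 of the 23 rose and 0 fell. The number that rose was 2 without siCtl DEX replicate 3 and 3 without siCtl DEX replicate 1 or 2 or siJUN DEX replicate 3. Of 18 actin and SRF target genes 5 rose (27.8%) and 3 fell (16.7%), with a median of 0.03. CNN1, which encodes calponin 1 and is also in the mesenchymal list, lost its call in 2 of the 6 fits that each left out 1 library. It was the 1 member called without the block (adjusted p = 0.038), and 3 rose without siCtl DEX replicate 2 or siJUN DEX replicate 2. Of 5 EGFR family ligand and receptor genes, NRG1, a ligand of ERBB3, rose by 0.30 on the log2 scale (adjusted p = 1.12e-04, and 0.115 without the block) and EGFR fell.

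Among 21 genes of the glucocorticoid receptor and its cofactors FKBP5 was the only one called, and none was without siCtl DEX replicate 2. Of 6 luminal breast genes MUC1 and XBP1 rose, by 0.19 and 0.29 (0 of 6 without the block, and 1 in the 5 fits that left out 1 library other than siCtl DEX replicate 3), and of 13 genes that mark RNA classes NEAT1 rose by 0.22 (adjusted p = 0.0253, and 0.122 without the block), but not without siCtl DEX replicate 2 or 3 or siJUN DEX replicate 2. Of 12 immune cell markers 3 were tested and none was called, with PTPRC at 1.51 ± 0.739 CPM in siCtl DEX and 1.02 ± 0.337 CPM in siJUN DEX (SD, n = 3, adjusted p = 0.444, edgeR).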
